A study of Neurospora crassa with 24 samples.

Results

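The last step of conidial germination of Neurospora crassa on Bird medium (BM) was examined, from 240 min, when the long axis of the spore had doubled, to 360 min, when the first hyphal branches appeared. Genes entered the comparison if the deposited level and its lower 95% bound were above 0 at both times, which held for 8888 of the 9730 genes listed. The strain was FGSC2489, a mat A wild type, and macroconidia were spread on cellophane over agar medium and kept at constant temperature under constant white light. The medium BM is a synthetic medium rich in glucose and ammonium, and maple sap medium (MSM), on which the same strain was sampled at the same minutes, is a natural medium poor in nitrogen. Each of the 8 groups held 3 biological replicates grown at separate times, of which the 6 libraries of BM at 240 and 360 min are the ones compared here. The deposited tables give 1 pooled level per gene and stage with a 95% interval and no value per replicate, and a level is the ratio to whichever stage was lowest for that gene on that medium. The read depth of single libraries is not in these values and was not analysed here. All errors below come from these intervals, which may not hold the whole spread among replicates. Whole germinating cultures were sampled, so that fewer cells of a kind and less RNA per cell cannot be told apart.

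A germ tube grows at its tip, where vesicles deliver membrane and wall, and a new tip forms when the mycelium branches. Young germlings of N. crassa also seek each other and fuse, and 2 mitogen-activated protein kinase (MAPK) cascades, those of MAK-1 and MAK-2, are known to be needed for that fusion. Conidia carry transcripts of their own formation, among them that of the hydrophobin EAS, which coats the spore surface. A culture of extending germlings can hold both kinds of transcript, those left from the spore and those of the growing hypha.

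As deposited, the median gene changed by -0.30 in log2 from 240 to 360 min (0.814 of its former level). A shift common to most genes cannot be told apart from a difference in library depth, so each change below is a log2 ratio of the 360 min level to the 240 min level relative to that median gene, given ± SE. A value marked as deposited, without this centring, follows where it has the other sign. At a Bonferroni adjusted p below 0.01 in a two-sided z test, 2764 genes (31.1% of those tested) were higher and 2409 (27.1%) were lower at 360 min. Changes of at least 2-fold were fewer. They covered 216 genes higher (2.43%) and 207 lower (2.33%). The middle of the distribution was narrow, with the 25th percentile of all changes at -0.26 and the 75th at 0.25, and the median SE was 0.028. With every SE multiplied by 3, to allow for spread that the intervals may not hold, 1401 genes were higher and 1091 lower. The step was smaller than the one before it, since the median size of change was 0.255 against 0.496 from 120 to 240 min and 0.306 from 15 to 120 min. In the verbs that follow, a gene rose or fell only where it passed this test.

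**Figure D1:**
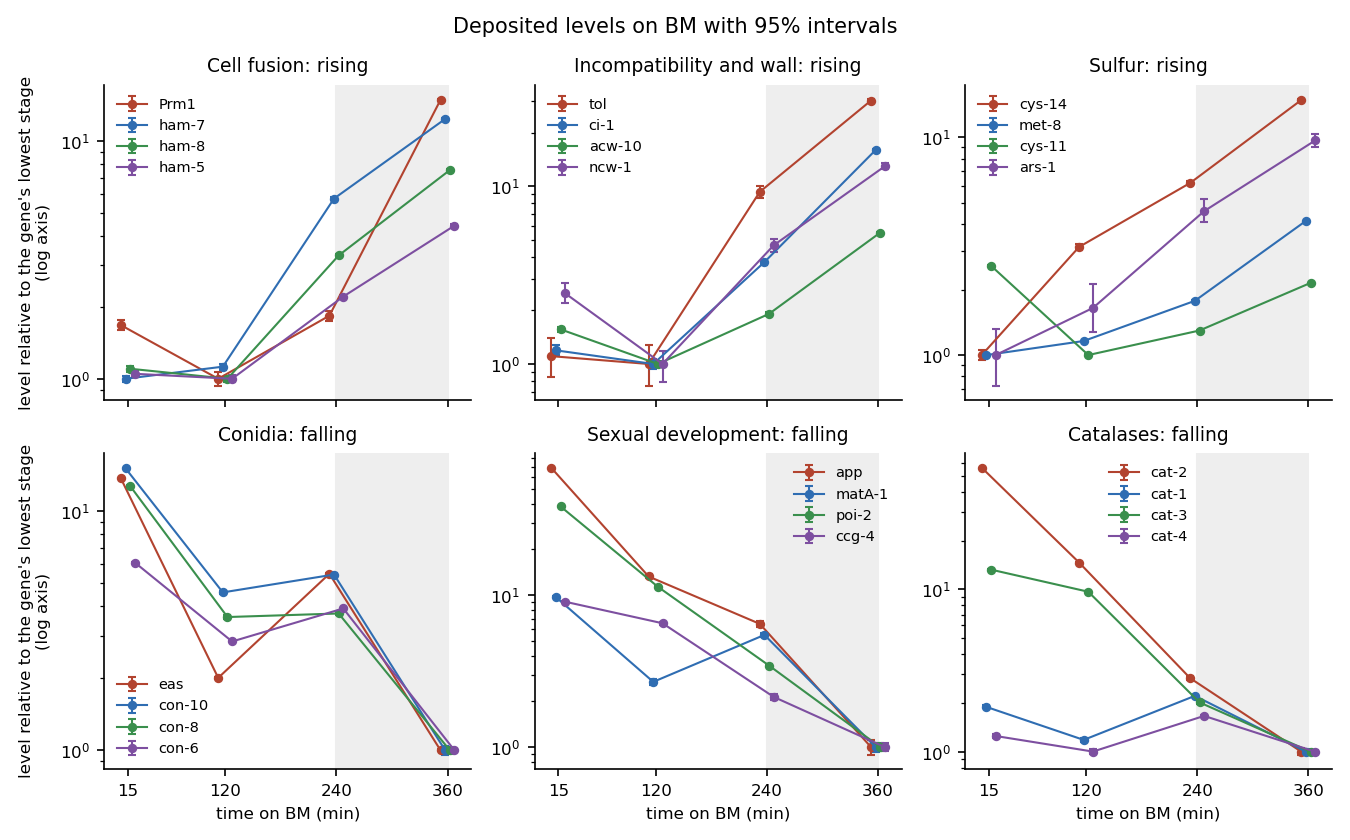
Deposited levels on BM at 15, 120, 240 and 360 min for 24 genes in 6 panels, each relative to the gene's own lowest stage on a log axis, with 95% intervals as bars and the last step shaded. Prm1 climbed from 1.84 to 15.0 in the last step, while eas fell from 5.47 to 1.00.

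Several genes of germling fusion rose. The level of Prm1, which encodes a membrane protein that acts when plasma membranes merge, was 1.68 at 15 min, 1.00 at 120 min, 1.84 at 240 min and 15.0 at 360 min. It rose by 3.32 ± 0.037, a 9.97-fold change, and the 95% interval at 360 min (14.8 to 15.1) lay far above that at 240 min (1.75 to 1.93). Before 240 min its level had stayed within a 1.84-fold range. The level of ham-7, encoding a wall-anchored protein that acts upstream of MAK-1, was 1.00, 1.12, 5.74 and 12.4 at the 4 stages and rose by 1.41 ± 0.009. That of ham-8, a membrane protein gene required for fusion, was 1.10, 1.00, 3.31 and 7.57 and rose by 1.49 ± 0.012. Between 120 and 240 min the level of each of the 3 genes had already climbed as deposited, that of Prm1 the least. The genes ham-5 (1.29 ± 0.016), encoding a scaffold of the MAK-2 cascade, ham-6 (0.98 ± 0.014) and adv-1 (1.07 ± 0.009), encoding a transcription factor of fusion and development, rose as well and were picked out after their values had been seen.

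Of 31 MAPK and fusion genes tested, 20 rose, 8 fell and 3 were not called, with a median of 0.28 against 0 over all genes (-0.02 as deposited), and 6 rose at least 2-fold. Of the 9 ham genes 8 rose, and ham-2 was not called. As deposited 5 of the 9 lay above 0, and of those that rose ham-3 (-0.02), ham-4 (-0.12) and ham-10 (-0.15) lay below it. Within the cascades the tiers moved apart, and the members named here other than mek-1 were chosen after their values had been seen. In the cell wall integrity cascade, the kinase kinase kinase gene mik-1 fell (-0.34 ± 0.014), the kinase kinase gene mek-1 rose (1.34 ± 0.014) and the kinase gene mak-1 rose (0.45 ± 0.008). In the fusion cascade nrc-1 fell (-0.20 ± 0.019), mek-2 rose (0.28 ± 0.011, -0.02 as deposited) and mak-2 rose (0.65 ± 0.008). In the osmotic cascade os-4 fell (-0.53 ± 0.015), os-5 rose (0.46 ± 0.018) and os-2 fell (-0.21 ± 0.007). Relative to the median gene, the top tier was thus lower and the middle tier higher in all 3 cascades on BM. This pattern was not shared by MSM, where mik-1 (0.24) and nrc-1 (0.05) lay above the median gene and mek-1 (-0.09) below it. There os-4 (-0.11), os-5 (0.64) and mek-2 (0.15) had the same sign as on BM. The level of mek-1 was 1.21, 1.15, 1.00 and 2.07, so that its rise came after 240 min.

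The NADPH oxidase gene nox-1 and the tetraspanin gene pls-1 rose by 1.39 ± 0.012 and 1.59 ± 0.036. The oxidase gene nox-2, named after its value had been seen, was not called (-0.08 ± 0.024). The level of pls-1 was 1.12, 1.15 and 1.00 at the first 3 stages and 2.45 at 360 min, while that of nox-1 was 1.11, 1.00, 2.63 and 5.62. Among genes of heterokaryon incompatibility, the recognition system that kills cells after fusion of unlike strains, the HET-domain genes tol and pin-c rose steeply. The levels of tol were 1.11, 1.00, 9.29 and 30.3, a change of 2.00 ± 0.060. Those of pin-c were 3.95, 1.00, 4.24 and 33.6 (95% interval 31.1 to 35.9 at 360 min), a change of 3.28 ± 0.315 with a Bonferroni adjusted p of 2.0e-21 by the z test, a call that was lost when the SE was multiplied by 3. Of the other 4 genes of this list, which was drawn up after values had been seen, un-24 rose by 0.11 ± 0.007 (-0.18 as deposited), vib-1 fell by 0.41 ± 0.015, and het-6 and het-c were not called.

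Genes of polarity and branching moved little in the step in which branches appeared. Of 34 tested, 14 rose, 11 fell and 9 were not called, none by 2-fold, and the median was -0.01. The counts of this and the next 2 lists are to be read beside 31.1% higher and 27.1% lower among all genes tested. The largest rises were those of cot-5 (0.43 ± 0.034), spa2 (0.43 ± 0.021), encoding a polarisome component, and mob-1 (0.39 ± 0.029), encoding a kinase activator. The phosphoinositide kinase gene mss4 fell most (-0.39 ± 0.012), followed by cdc24 (-0.24 ± 0.019), encoding the exchange factor of the GTPase CDC42. The GTPase genes themselves changed by less, with cdc42 at -0.07 ± 0.013, rac-1 at 0.10 ± 0.008 (-0.19 as deposited) and rho-1 at 0.06 ± 0.005 (-0.24 as deposited). The kinase gene cot-1, mutants of which branch excessively, rose by 0.11 ± 0.012 (-0.19 as deposited), and its level ran from 1.00 to 1.2 over the 4 stages. Septation genes were as divided, with 5 of 13 higher and 6 lower. Their largest rise was that of so (0.69 ± 0.012), a gene also needed for germling fusion, followed by mob-1, and their largest fall that of bud4 (-0.31 ± 0.017), a landmark of septum sites. Of 23 cytoskeleton and motor genes 13 rose and 5 fell (median 0.08, -0.21 as deposited), led by the fimbrin gene fim (0.74 ± 0.011), the tubulin gene tba-1 (0.45 ± 0.006) and arp2 (0.44 ± 0.015), whereas the kinesin gene kin-3 fell (-0.56 ± 0.041).

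Wall genes divided in the same way but with a few large changes. Of 36 tested, 11 rose, 12 fell and 13 were not called, beside 31.1% higher and 27.1% lower among all genes tested. The anchored wall protein gene acw-10 had levels of 1.57, 1.00, 1.91 and 5.48 and rose by 1.81 ± 0.020. The wall protein gene ncw-1 had levels of 2.49, 1.00, 4.65 and 13 and rose by 1.77 ± 0.068. Against these, ncw-3 fell by 0.91 ± 0.048 and the glucanosyltransferase gene gel-1 fell by 0.73 ± 0.054. The catalytic machinery changed less. Among chitin synthase genes chs-3 (0.31 ± 0.015) and chs-5 (0.14 ± 0.012, -0.15 as deposited) rose, chs-1 and chs-4 were not called, and chs-6 was not called at 0.59 ± 0.146. The glucan synthase gene do fell by 0.27 ± 0.005, and gfa1, of the enzyme that starts hexosamine synthesis, rose by 0.36 ± 0.009. Of 34 genes listed for plant wall breakdown, 28 could be tested. The monooxygenase genes gh61-7 (2.05 ± 0.138) and gh61-2 (1.46 ± 0.045) rose, the others tested comprised 3 that rose and 5 that fell, and 18 were not called.

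**Figure D2:**
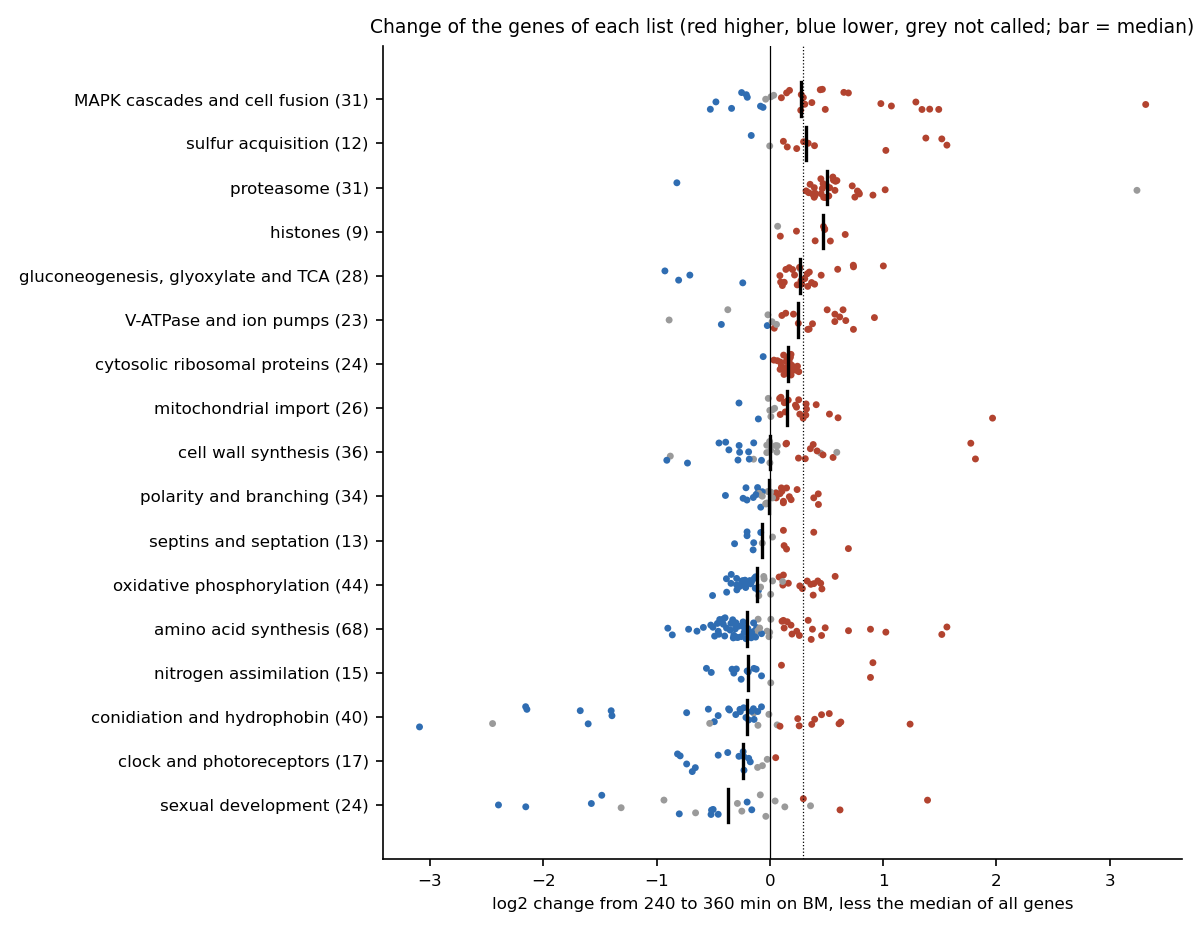
Log2 change from 240 to 360 min on BM relative to the median gene (horizontal axis) for every tested gene of 17 lists, with the number tested in brackets, the list median as a black bar and the deposited zero as a dotted line. Proteasome genes form a tight band around a median of 0.50, while conidiation genes spread from -3.09 to 1.24.

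Transcripts of conidia fell. The 5 marker genes of conidia were eas and 4 con genes, of which 4 fell and con-13 was not called, and none was listed at 0. The level of eas was 13.7 at 15 min, 2.01 at 120 min, 5.47 at 240 min and 1.00 at 360 min, so that it was partly restored at 240 min before falling by 2.16 ± 0.008, a 4.46-fold change. The level of con-10 was 15.1, 4.57, 5.43 and 1.00, and it fell by 2.15 ± 0.032. Those of con-8 (12.7, 3.61, 3.73 and 1.00) and con-6 (6.10, 2.85, 3.92 and 1.00) followed the same order and fell by 1.6 ± 0.029 and 1.67 ± 0.010. In all of these the level at 240 min exceeded that at 120 min as deposited. After centring, con-8 (-0.37) and con-10 (-0.17) were lower at 240 min than at 120 min. The level of con-13 was 46.3, 6.38, 6.70 and 1.00 with an interval at 360 min of 0.244 to 2.71, too wide for a call at -2.45 ± 0.942. Levels are relative within a gene, so they were not summed over the markers.

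Of all 40 conidiation genes tested, 24 fell, 10 rose and 6 were not called, with a median of -0.20, and 7 fell at least 2-fold. The largest fall was that of ccg-13, a wall protein gene under clock control, with levels of 21.3, 6.79, 10.5 and 1.00 and a change of -3.09 ± 0.081. The clock-controlled gene ccg-1 fell by 1.39 ± 0.017. The gene fl, whose zinc finger product directs the formation of conidia, had levels of 4.14, 4.15, 3.24 and 1.00 and fell by 1.40 ± 0.021 in the last step. Among those that rose, cmt, encoding copper metallothionein, stood at 1.24 ± 0.003 and was chosen after its value had been seen. The wall protein gene ncw-6 fell by 1.45 ± 0.067 and ts, annotated as a bZIP transcription factor, by 1.70 ± 0.027.

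Genes of sexual development were more often lower than higher. Of 24 tested, 11 fell, 3 rose and 10 were not called (median -0.37), and 4 fell at least 2-fold. The perithecial protein gene app fell in every step, with levels of 68.7, 13.3, 6.47 and 1.00, and by 2.40 ± 0.090 in the last. The mating-type gene matA-1 had levels of 9.69, 2.69, 5.47 and 1.00 and fell by 2.16 ± 0.056. The gene poi-2 fell by 1.48 ± 0.045, and the receptor gene gpr-1 by 1.58 ± 0.279 with a Bonferroni adjusted p of 0.00015 by the z test. The 3 members that rose were nox-1, the oxidase regulator gene nor-1 (0.62 ± 0.015) and pp-1 (0.30 ± 0.012, -0.0011 as deposited), the transcription factor gene of the MAK-2 cascade. Clock and photoreceptor genes were lower in 13 of 17 cases and higher in 1 (median -0.24). The opsin gene nop-1 (-0.82 ± 0.086), the phytochrome gene phy-1 (-0.79 ± 0.027), csp-1 (-0.73 ± 0.014) and the clock gene frq (-0.68 ± 0.012) led, and the casein kinase subunit gene cka alone rose (0.05 ± 0.006, -0.24 as deposited). All 4 catalase genes fell, at -1.21 ± 0.039 for cat-2, -0.85 ± 0.027 for cat-1, -0.71 ± 0.022 for cat-3 and -0.44 ± 0.024 for cat-4, the last 2 named after values had been seen. Superoxide dismutase and alternative oxidase genes were divided. The superoxide dismutase gene sod-1 rose by 1.07 ± 0.010, while sod-2 fell (-0.22 ± 0.028). The alternative oxidase gene aod-1, with levels of 1.11, 1.37, 1.00 and 2.43, rose by 1.58 ± 0.023. Of its relatives aod-3 fell (-0.41 ± 0.045) and aod-2 was not called. The genes sod-2, aod-2 and aod-3 were named after values had been seen.

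Proteasome genes rose almost without exception. All 29 genes named as subunits of the core or the cap rose, by 0.32 to 1.02, and all 29 also lay above 0 as deposited. The median was 0.50 for the 13 core genes and 0.52 for the 16 cap genes, and rpn-3 (1.02 ± 0.018), rpn-10 (0.91 ± 0.020) and rpn-6 (0.79 ± 0.018) led. The exception was rpn-4, whose Saccharomyces cerevisiae namesake is the transcriptional activator of proteasome genes. Its level was 22.1, 9.45, 2.17 and 1.00, and it fell by 0.82 ± 0.023. The remaining gene annotated with the proteasome, NCU01090, was not called at 3.24 ± 4.15. The list had risen in the step before as well, with a median of 1.08 that shares the 240 min levels. Histone genes rose in 8 of 9 cases (median 0.47, 0.18 as deposited), with hH1 at 0.67 ± 0.006 and hH4-1 at 0.53 ± 0.003. Of 14 genes of the vacuolar ATPase, which acidifies the vacuole, 13 rose (median 0.36, 0.06 as deposited), led by vma-13 (0.92 ± 0.017), while the potassium transporter gene hak-1 fell (-0.43 ± 0.048).

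The ribosomal protein genes listed here shifted together by a small amount. Genes without a symbol could enter this list, and that of rRNA processing, only from the first 1753 genes, so both are incomplete. Of 24 cytosolic ribosomal protein genes 23 were higher than the median gene, with a median of 0.16, but all 24 were below 0 as deposited (median -0.14), so that their direction rests on the reference gene. NCU01331 alone was lower (-0.06 ± 0.005). Of 16 genes of rRNA processing and RNA polymerases I and III, 12 fell and 1, NCU01234, rose (0.08 ± 0.011, -0.21 as deposited).

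Metabolic genes separated by pathway. Of 12 genes of sulfur acquisition 10 rose, 1 fell and 1 was not called (median 0.32, 0.02 as deposited), and 4 rose at least 2-fold. The level of cys-14, encoding a sulfate permease, was 1.00, 3.14, 6.18 and 14.9 and rose by 1.56 ± 0.018. That of met-8, encoding methionine synthase, was 1.00, 1.16, 1.77 and 4.14 and rose by 1.52 ± 0.003. The arylsulfatase gene ars-1 rose by 1.38 ± 0.102 and the ATP sulfurylase gene cys-11 by 1.02 ± 0.005. The gene of their activator, cys-3, rose by only 0.15 ± 0.007 (-0.14 as deposited), and met-7 fell by 0.16 ± 0.010. The rest of amino acid synthesis went the other way. After a split by name made once values had been seen, 12 of 15 cys and met genes rose and 1 fell (median 0.24, -0.06 as deposited), whereas 42 of the other 53 genes fell and 6 rose (median -0.28). The kinase gene cpc-3, a sensor of amino acid starvation, fell by 0.90 ± 0.018, and, named after values had been seen, his-6 fell by 0.86 ± 0.009 and cpc-1, the activator of the pathway genes, by 0.23 ± 0.003. Nitrogen assimilation genes fell in 11 of 15 cases, with nit-2, the GATA factor gene of nitrogen control, at -0.52 ± 0.009. The glutamate dehydrogenase gene gdh-1 (0.89 ± 0.025), the allantoicase gene alc-1 (0.91 ± 0.018) and en(am)-2 (0.10 ± 0.006, -0.19 as deposited) rose.

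Respiratory genes were split by complex. Of 29 complex I genes 21 fell and 2 rose (median -0.18), and all 29 were below 0 as deposited. Of the other 15 genes of oxidative phosphorylation 12 rose and 2 fell (median 0.33, 0.03 as deposited), a division made after values had been seen. Among the latter the cytochrome c gene cyc-1 rose by 0.46 ± 0.002 and the external NADH dehydrogenase gene nde-1 by 0.58 ± 0.025. The other nde genes, named after values had been seen, did not rise, as nde-2 fell (-0.22 ± 0.003) and nde-3 was not called. Tricarboxylic acid cycle genes rose in 16 of 17 cases (median 0.27, -0.02 as deposited), with citrate synthase, cit-1, at 0.74 ± 0.004. Genes of growth on acetate and of gluconeogenesis were divided. Those that fell were isocitrate lyase, acu-3, at -0.93 ± 0.013, fructose bisphosphatase, fbp-1, at -0.81 ± 0.134 and, named after its value had been seen, phosphoenolpyruvate carboxykinase, acu-6, at -0.71 ± 0.069. Acetyl-CoA synthetase, acu-5, rose by 1.00 ± 0.009, and so did acu-9 (0.45 ± 0.031), acu-8 (0.35 ± 0.009) and acu-15 (0.11 ± 0.018, -0.19 as deposited), the last 3 named after values had been seen. Of 10 reserve and other carbohydrate genes with their regulators 2 rose and 6 fell (median -0.38). Glycogen synthase, gsy-1, with levels of 3.19, 1.00, 9.09 and 16.7, rose by 1.17 ± 0.014. The glycogenin gene gnn, named after its value had been seen, fell (-0.48 ± 0.011). The catalytic subunit gene of protein kinase A, pkac-1, with levels of 1.42, 1.00, 10.6 and 16.9, rose by 0.97 ± 0.017. Of 24 peroxisome and fatty acid genes 12 rose, 6 fell and 6 were not called (median 0.09, -0.21 as deposited). Their largest rises were those of fox-2 (1.41 ± 0.020), of fatty acid oxidation, and pex7 (0.89 ± 0.042), of protein import. The gene tob55, which encodes the assembly factor of the mitochondrial outer membrane, rose by 1.97 ± 0.045 from a level of 2.00 to 6.38.

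The largest changes of all were in genes without a symbol. Given here are the 5 higher and 5 lower of these with the largest bound nearest 0, which is not a ranking by size of change. NCU12068 rose by 5.49 ± 0.159, from a level of 9.68 (95% interval 8.05 to 12.4) to 354 (351 to 356). NCU09562 rose by 4.72 ± 0.047, with levels of 1.00, 2.47, 36.5 and 783. NCU05712 rose by 4.89 ± 0.314, NCU12067 by 4.48 ± 0.249 and NCU11172 by 3.85 ± 0.036. Among falling genes NCU10040 fell by 4.34 ± 0.141, with levels of 47.8, 15.8, 24.8 and 1.00, and NCU09859 by 4.26 ± 0.172. NCU05567 fell by 4.73 ± 0.758, NCU00607 by 3.62 ± 0.509 and NCU07449 by 2.92 ± 0.134. Changes of at least 8-fold numbered 16 upward and 7 downward.

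Some of these genes lay side by side. In the NC12 assembly 6 runs of 3 or more neighbouring protein-coding genes changed at least 2-fold in one direction, 2 upward and 4 downward. On linkage group VI, from 148024 to 153543, NCU07108 (2.06), NCU12067 (4.48) and NCU12068 (5.49) rose together. On linkage group V, from 6033313 to 6041800, 4 genes from NCU09953 (4.33) to NCU09956 (2.32) rose. The longest run, 6 genes from NCU05761 (-1.21) to NCU17268 (-1.32), fell and lies on linkage group VII from 3734171 to 3743489. Its strongest members were NCU17267 at -2.51 ± 0.349 and NCU05763 at -2.50 ± 0.229. On linkage group V from 5055536 to 5080269, 4 genes from NCU04167 (-2.05) to NCU04170 (-1.25) fell. The conidiation regulator fl (-1.40) fell together with its neighbours NCU08724 (-1.97) and NCU08727 (-1.13) on linkage group II, from 3801521 to 3811766. With every SE multiplied by 3, an alternative setting, 12 of the 23 members of these runs kept their call. The sixth run was NCU01862, NCU01861 and NCU01860 on linkage group I, from 2223366 to 2232628, at -1.51, -2.58 and -2.25.

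The course before 240 min was read from the first step, 15 to 120 min, which shares no level with the last. Of the 216 genes that rose at least 2-fold in the last step, 50 had been higher in the first (23.1%, against 30.8% of the genes tested in both steps) and 67 lower, beside 31.8% lower among all genes tested. Of the 207 that fell at least 2-fold, 96 had been lower in the first step (46.4% against 31.8%) and 71 higher (34.3% against 30.8%). Genes that could not be tested included 120 listed at 0 at 240 min only, 210 at 360 min only and 512 at both. Whether a listed 0 stands for no reads or for no estimate was not tested.

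A broader annotation, available for the first 1753 genes of the list, gave counts by functional class, to be read beside the 31.1% higher and 27.1% lower among all genes tested. In intracellular trafficking and secretion 36 of 54 genes rose and 10 fell (median 0.17, -0.13 as deposited), and in energy production 27 of 43 rose and 7 fell (median 0.25, -0.04 as deposited). Lipid metabolism followed, with 24 of 43 higher and 7 lower. RNA processing had 32 of 68 genes lower and 16 higher, and amino acid metabolism 25 of 47 lower and 15 higher. Signal transduction had 25 of 95 genes higher and 32 lower, and transcription 27 of 95 higher and 37 lower.

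The same step was taken on MSM, where the same minutes need not mark the same morphological stage, so that a difference between the media cannot be told apart from one in developmental timing. As deposited the median gene changed by 0.15 on MSM, and changes there too are relative to it. Of 8773 genes tested on both media, 3012 (34.3%) were higher on BM and 2330 (26.6%) lower on BM, tested as the difference between the centred changes (two-sided z test, Bonferroni adjusted p below 0.01). The step was the larger on MSM, with a median size of change of 0.391 against 0.254 on BM, and 34.8% of these genes rose and 34.5% fell there. Among the 215 genes tested on both media that rose at least 2-fold on BM, 148 also rose on MSM (68.8%) and 28 fell there. Among the 204 that fell at least 2-fold on BM, 77 also fell on MSM (37.7%) and 50 rose there.

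**Figure D3:**
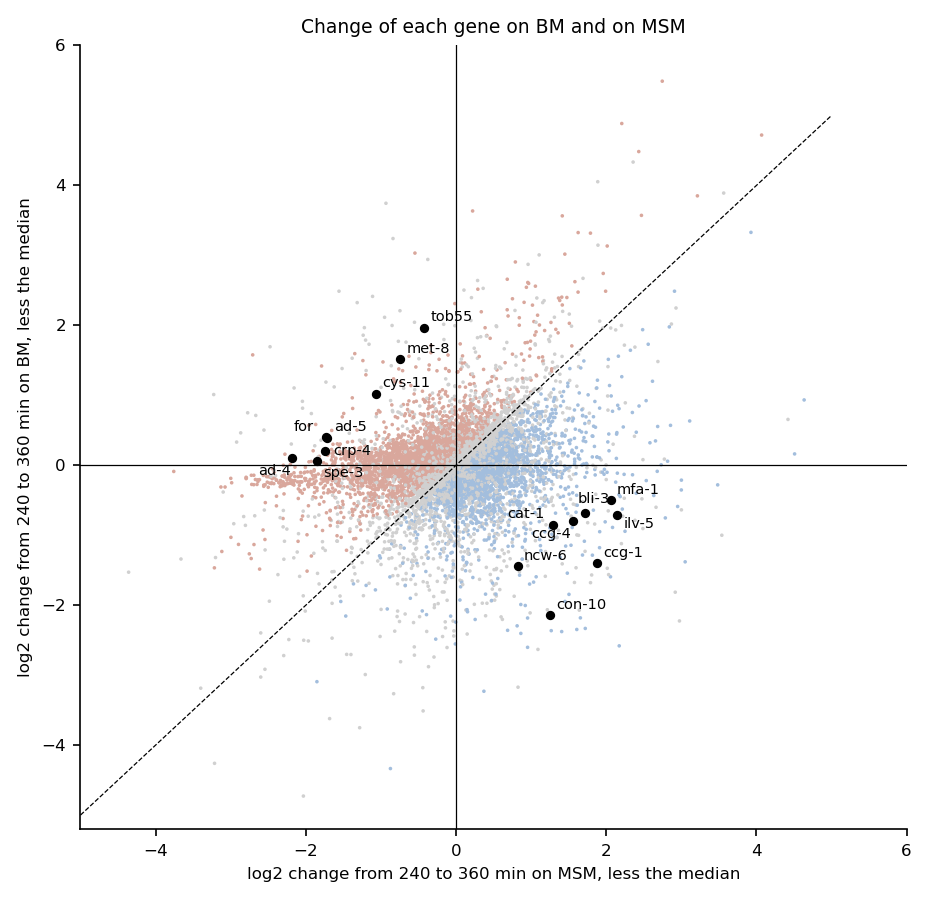
Log2 change from 240 to 360 min relative to the median gene on MSM (horizontal axis) and BM (vertical axis) for genes tested on both media, coloured where the difference was called (red higher on BM, blue lower on BM), with equality as a dashed line. The 16 labelled genes changed in opposite directions relative to the median gene, as con-10 did at -2.15 on BM and 1.25 on MSM, although ad-4 (-0.19), crp-4 (-0.093) and spe-3 (-0.23) were below 0 on BM as deposited; 1 gene lies outside the axes.

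Most of the fusion genes named above rose on both media, though of the 9 ham genes 6 rose and 2 fell on MSM. The change of ham-7 was 1.41 on BM and 1.35 on MSM, a difference of 0.06 ± 0.015 that was not called, and those of ham-6 (0.98 and 0.94), adv-1 (1.07 and 1.03) and nox-1 (1.39 and 1.31) were not called different either. The changes of ham-5 (1.29 and 1.07) differed by 0.22 ± 0.029, and those of ham-8 (1.49 and 1.70) by -0.21 ± 0.022, so that ham-8 rose more on MSM. Of all 31 MAPK and fusion genes, 11 were higher and 13 lower on BM by the test of the difference. Prm1 rose on both but more on BM, by 3.32 against 1.79. Exceptions included mek-1, at 1.34 on BM and -0.09 on MSM, a difference of 1.43 ± 0.020, and ham-3, at 0.27 and -0.13. Proteasome subunit genes rose on both media, with all 29 higher on MSM too (median 0.64). The conidial markers parted from this. On BM eas, con-6, con-8 and con-10 fell, while on MSM con-6 (0.07), con-8 (0.22) and con-10 (1.25) rose and eas fell by 0.07, and all 4 differences were called.

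Growth-related metabolism differed between the media by list, with the lists of ribosomal protein genes incomplete. By the test of the difference, all 24 listed cytosolic ribosomal protein genes were higher on BM than on MSM, with a median of 0.16 on BM and -1.29 on MSM. So were all 7 listed mitochondrial ribosomal protein genes and all 7 listed purine and pyrimidine genes. Amino acid synthesis genes were higher on BM in 64 of 68 cases, at medians of -0.20 and -1.02. Complex I went the opposite way, since all 29 of its genes rose on MSM (median 0.74) whereas 21 fell on BM. Sulfur genes were higher on BM in 11 of 12 cases, at medians of 0.32 and -0.73. In a list of reserve and other carbohydrate genes with their regulators, 9 of 10 were lower on BM, among them the regulator gene cre-1 (-0.50 and -0.08) and gsy-1 (1.17 and 1.49), which rose on both media. Polarity genes had similar medians, -0.01 and 0.05, with 17 of 34 lower on BM and 9 higher.

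**Figure D4:**
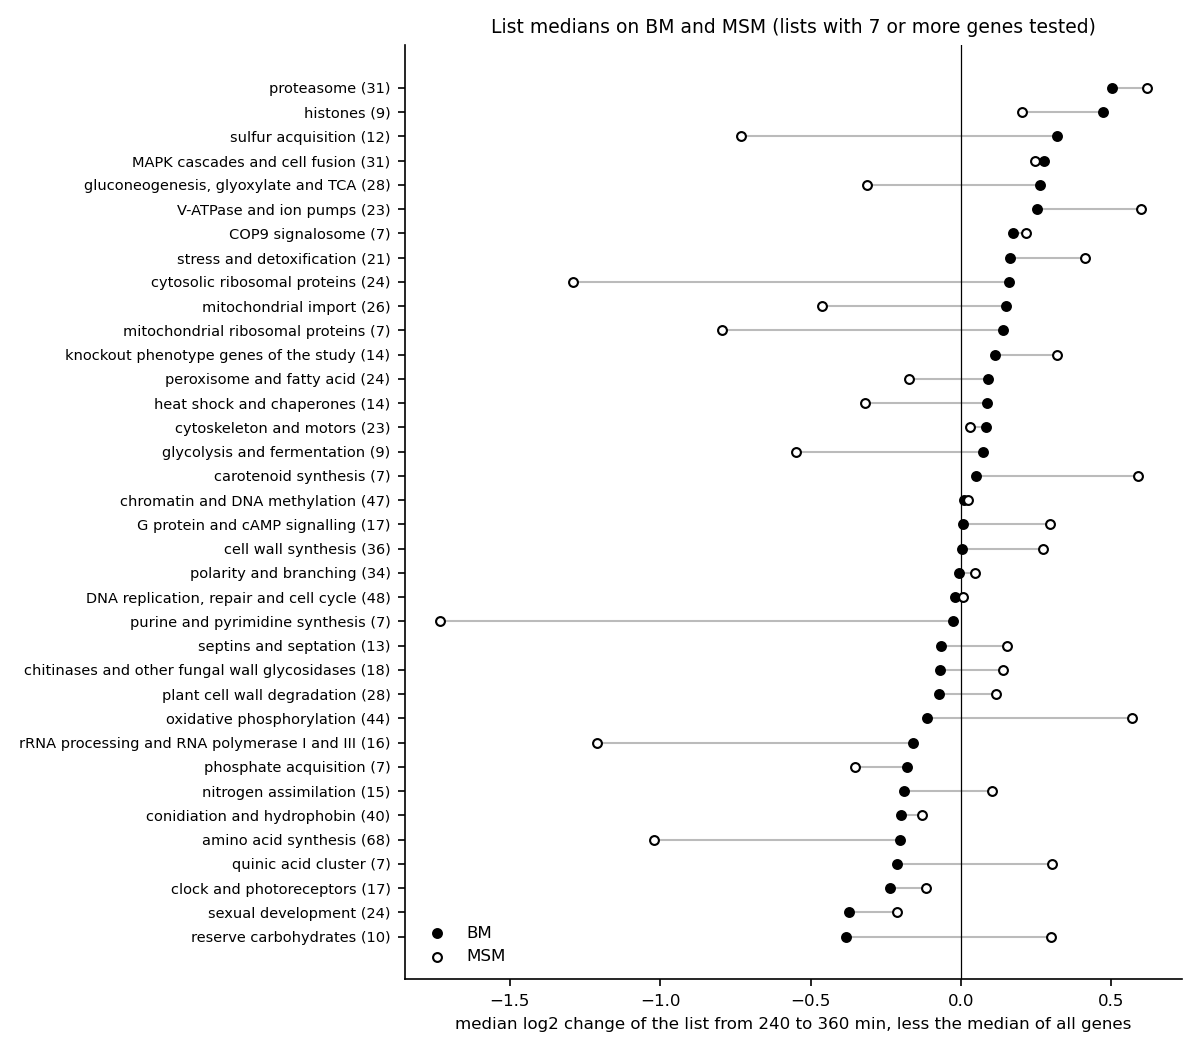
Median log2 change from 240 to 360 min of each list with 7 or more genes tested, relative to the median gene (horizontal axis), on BM (filled) and MSM (open), with the number tested in brackets. The medians lie close together for MAPK and fusion genes (0.28 and 0.25), of which 11 were higher and 13 lower on BM, and far apart for cytosolic ribosomal proteins (0.16 and -1.29).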

How the data were processed

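RNA was sequenced as 76-bp paired-end reads from 3 biological replicates of each of 4 stages on 2 media, in 24 libraries. Trimming and alignment (TopHat2 2.0.12) were done by the authors, who used HTSeq 0.6.1p1 to tally reads that mapped once to exons, and LOX to turn the tallies into relative levels. The deposited values are ratios, the level of a gene at each stage over its lowest stage on that medium, with distances to the 95% bounds. Replicates are pooled in them, and read tallies and values per library were not analysed here.

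The log2 level was given an SE from the width of its interval, and stages were taken as independent. The change from 240 to 360 min, less the median change of 8888 genes, was tested by a two-sided z test with Bonferroni adjustment over those genes (threshold 0.01), as was the difference from MSM over 8773 genes. Whether the intervals hold the whole spread among replicates, and whether stages are independent, was not tested. The numbers 1 to 4 in the column names were taken as the stages in order of time. Positions, symbols and neighbours are those of NC12 in RefSeq, in which 9729 of 9730 identifiers were found and 1118 have a symbol. Promoter and protein sequences were not used here.

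Genes named are the 15 higher and 15 lower with a symbol and the 5 higher and 5 lower without one that have the largest bound nearest 0, up to 4 called members of a list and called members against its majority where at most 3, the 8 with a symbol in each direction called with opposite signs on the media, and any gene of the polarity, wall and septation lists. Others, among them members of the runs of neighbours, were chosen after their values were seen. The comparison and the 38 lists were chosen with earlier results of these data known. Computations ran under Python 3.11.15, with SciPy 1.17.1, numpy 2.4.6 and pandas 2.3.3, and plots under matplotlib 3.10.9. KOG classes, and the KOG descriptions by which some list members were found, were those the study lists for the first 1753 genes.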

Additional observations from a re-analysis of the deposited data

Results flagged for a closer look

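The change from 240 to 360 min differed between the media (two-sided z test, Bonferroni adjustment) in 3012 genes that were higher on BM and 2330 that were lower on BM. The 16 genes below, the 8 in each direction with the largest differences at the bound nearest 0 among genes with a symbol called with opposite signs, are given as the change on BM less that on MSM. The cause of these differences was not tested.

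Higher on BM were tob55 (2.39 ± 0.047), the methionine synthase gene met-8 (2.26 ± 0.006) and the ATP sulfurylase gene cys-11 (2.09 ± 0.009), which rose on BM and fell on MSM. Biosynthetic genes of purines and one-carbon units followed, with ad-4 (2.29 ± 0.016) and ad-5 (2.14 ± 0.011) for steps of purine synthesis and for (2.12 ± 0.009) for serine hydroxymethyltransferase. The ribosomal protein gene crp-4 (1.95 ± 0.005) and the spermidine synthase gene spe-3 (1.92 ± 0.006) were higher on BM chiefly through their falls on MSM, by 1.75 and 1.85, beside changes of 0.20 and 0.06 on BM (-0.093 and -0.23 as deposited). The change of ad-4 on BM was likewise 0.11 relative to the median gene and -0.19 as deposited.

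Lower on BM were con-10 (-3.40 ± 0.034) and the glucose-repressible gene ccg-1 (-3.27 ± 0.019), which fell on BM and rose on MSM. The level of con-10 went from 1.00 to 2.64 on MSM and from 5.43 to 1.00 on BM. The pheromone precursor genes mfa-1 (-2.56 ± 0.083) and ccg-4 (-2.35 ± 0.058) rose by 2.06 and 1.55 on MSM and fell by 0.50 and 0.80 on BM, and these calls on BM, like that of ilv-5, were lost with SE multiplied by 3. The others were ilv-5 (-2.87 ± 0.103), the blue-light induced gene bli-3 (-2.41 ± 0.050), the wall protein gene ncw-6 (-2.27 ± 0.081) and the catalase gene cat-1 (-2.13 ± 0.034).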

How the results depend on the processing

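No paired analysis was possible because the deposited columns pool the 3 replicates, and for the same reason no replicate could be left out. Without centring on the median gene, 965 genes were higher, 5041 lower, 137 at least 2-fold higher and 462 at least 2-fold lower on BM. Likewise 1370 were higher and 4839 lower on BM than on MSM, since the median gene fell by 0.30. Of the 2764 genes called higher on BM with centring, 799 were called lower without it. With SE multiplied by 3, the counts were 1401 higher, 1091 lower and 99 at least 2-fold lower on BM, and 1731 higher and 990 lower on BM than on MSM. At 1.5-fold in place of 2-fold, 627 genes were higher and 542 lower. The counts stayed within 1.5 times under the other alternatives, which were Benjamini-Hochberg adjustment at 0.05, centring on genes with an SE under 0.05 or on the weighted mean (higher by 0.095 than the median), no filter on lower bounds with SE from the upper bounds, and only genes with an SE under 0.25. On the weighted mean 1990 genes were higher and 3245 lower, and 42 genes called higher with the median were called lower. Of 168 named genes, 40 lost their call with SE multiplied by 3, among them pin-c, ars-1, gpr-1, NCU05567, NCU00607, NCU09855 and NCU08095. Uncentred values turned below 0 in 17 genes, at -0.21 for NCU01234, -0.19 for acu-15, -0.19 for ad-4, -0.29 for chs-4, -0.15 for chs-5, -0.24 for cka, -0.19 for cot-1, -0.093 for crp-4, -0.14 for cys-3, -0.19 for en(am)-2, -0.25 for het-c, -0.019 for mek-2, -0.0011 for pp-1, -0.19 for rac-1, -0.24 for rho-1, -0.23 for spe-3 and -0.18 for un-24. Of 22 list medians above 0, 19 were below 0 uncentred, and the 3 others were those of the proteasome, histones and sulfur acquisition.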

Other observations

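Among gene groups not described above, phosphate acquisition genes fell in 4 of 7 cases and rose in none, led by the phosphate permease genes pho-5 (-1.08 ± 0.027) and pho-4 (-0.56 ± 0.027) and the regulator gene nuc-2 (-0.55 ± 0.010). Of 7 carotenoid genes 2 rose and 3 fell, with al-1 (-0.56 ± 0.011) and al-2 (-0.29 ± 0.015) lower and the isoprenoid precursor gene fpp (0.48 ± 0.010) and ylo-1 (0.33 ± 0.018) higher. Of 48 genes of DNA replication, repair and the cell cycle 10 rose and 13 fell (median -0.02). Of 47 chromatin genes 14 rose and 9 fell (median 0.01), beside 31.1% higher and 27.1% lower among all genes tested. The largest changes called in each of these lists were those of mus-43 (0.70 ± 0.047) and nst-7 (-1.0 ± 0.200), the latter lost with SE multiplied by 3. Of 17 genes of G protein and cAMP signalling 6 rose and 7 fell, and the receptor gene gpr-6 fell (-0.77 ± 0.014) while gpr-3 rose (0.92 ± 0.067).

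A further list held some of the genes whose knockouts showed an altered phenotype in the study. These genes were picked by the study on these samples, so the list is no independent evidence. Among its members 14 could be tested, of which 4 rose and 5 fell. NCU09855 had levels of 17.3, 56.9, 5.14 and 1.00 and fell by 2.06 ± 0.330. NCU08095 (-1.87 ± 0.230), NCU07044 (-1.60 ± 0.016) and NCU04583 (-1.27 ± 0.010) fell at least 2-fold as well, and gsy-1 was the only member that rose by as much.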
